A study of Homo sapiens
Mus musculus with 6 samples.

Results

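The response of mouse C2C12 myoblasts to a 6 h contact with human cells carrying wild-type Jag1 was read from the mouse reads of a co-culture RNA sequencing experiment. All mouse genes of the table were taken except Jag1, the introduced ligand, giving 23432 genes of 47288 mouse and human genes in the series, and 11364 of them passed the filter on low counts and were tested. The wells compared numbered 4 of 6. They held HEK-Jag1WT, human HEK293-Flp-In embryonic kidney cells with wild-type Jag1 kept under hygromycin, or HEK-control, the HEK293-Flp-In line without introduced Jag1. Each was placed on C2C12-Notch1, a C2C12 line carrying full-length Notch1 under puromycin, or on C2C12-control, the line without it, with 1 well per combination. The 2 further wells held HEK-Jag1Ndr, HEK293-Flp-In cells with the Nodder form of Jag1, and entered the fit to measure spread. In every well the C2C12 cells had settled for 8 h, had been transfected with 1.6 ug of the plasmid pcDNA5, and were joined by the HEK cells 18 h later. The sources used here give neither the promoters of the transgenes nor the number of clones per line, and they name no separate cultures.

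C2C12 is an immortal line of mouse skeletal muscle precursors that divides as myoblasts and fuses into myotubes in low serum. Notch is a receptor that a ligand on a neighbouring cell, such as Jag1, opens to cutting: ADAM proteases and then the gamma-secretase complex release its intracellular domain, which enters the nucleus, joins the DNA-binding protein Rbpj and a Mastermind protein, and switches genes on. The best known targets are the Hes and Hey repressors and the feedback inhibitor Nrarp. In muscle, Notch signalling is known for holding precursors undifferentiated and satellite cells quiescent, and for restraining Myod1.

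The 4 wells were sequenced to unequal depth. The HEK-Jag1WT wells held 2263529 and 4613336 mouse reads, 29.6% and 47.2% of all gene reads. A pair of values is that of the C2C12-Notch1 and the C2C12-control well, throughout. The HEK-control wells held 5203506 and 3983213 mouse reads, 33.6% and 49.4% of all gene reads. The HEK-Jag1WT well on C2C12-Notch1 cells thus had the fewest mouse reads. Reads on Jag1 numbered 46762 and 42347 in HEK-Jag1WT wells against 280 and 110 in HEK-control wells, so that the reads of the ligand followed the labels. C2C12 markers had a median of 308 and 343 RPKM (reads per kilobase of gene, scaled to the mouse reads of the well) in HEK-Jag1WT wells, against 284 and 199 RPKM in HEK-control wells. Of 18 HEK markers, 8 stood at 0 in the mouse table of all 4 wells, among them Epcam, Krt18, Six2, Pax2 and Lhx1. Other markers of the list did not. Nefl had 84.8 and 136 RPKM in HEK-Jag1WT wells, against 85.3 and 162 RPKM in HEK-control wells. Krt19 had 12.3 and 78 RPKM in HEK-Jag1WT wells, against 7.63 and 74.6 RPKM in HEK-control wells. Stmn2, Nefm and Peg10 also had reads in each of the 4 wells. The summed level of the HEK marker list was 257 and 319 RPKM in HEK-Jag1WT wells and 252 and 357 RPKM in HEK-control wells, so the sum overlapped between the groups, and its part in the results was not tested. In such bulk samples, fewer cells of a kind and less RNA per cell cannot be told apart.

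Beside HEK-Jag1WT, 506 of the 11364 tested mouse genes were called (4.45%), 306 of them higher (2.69%) and 200 lower (1.76%), where a call is an adjusted p under 0.05 in edgeR's quasi-likelihood test of HEK-Jag1WT against HEK-control with the C2C12 line as a term. Most changes were small. Of the genes called higher, 54 rose more than 2-fold, 14 of these more than 4-fold, and 175 rose less than 1.5-fold, with a median log2 change of 0.50. Of those called lower, 14 fell more than 2-fold and 143 less than 1.5-fold, with a median of -0.42. In this fit a gene that answered unequally in the 2 C2C12 lines counts as variable. Of the called genes, 302 of the 306 higher genes and 200 of the 200 lower genes moved the same way in both lines. Over all tested genes 56.8% did. The fit favours calls of such genes because it takes the lines as replicates. In scaled read counts, the HEK-Jag1WT and HEK-control wells did not overlap, in either direction, for 18.7% of all tested genes. The shares without overlap were 61.1% of the genes called higher and 52.5% of those called lower. The median response of the higher genes was log2 0.51 in C2C12-Notch1 cells and 0.50 in C2C12-control cells. For the lower genes it was -0.49 in C2C12-Notch1 cells and -0.39 in C2C12-control cells. With scaling by library size alone, 47% of 530 calls were higher, against 60.5% of the 506, and DESeq2 gave 76% of 150. A call held in each of the 6 fits that left out 1 well for 163 genes, 118 higher and 45 lower. Calls named in the following text held in all 6 such fits unless the wells they depended on are named. Of the 68 named genes that held in all 6, DESeq2 called 63 and limma on log2 RPKM 41, with the 5 that DESeq2 missed given beside their values. The 27 that limma missed, at adjusted p values of 0.0543 to 0.186, included Cbfa2t3, Tmc3, Ncald, Vill, Cmklr1, Gpbar1, Prelp, Egfr, Btc, Inhba, Smad3, Dtx4, Nid2, Thbs1, Amotl1 and Ndrg1 among higher genes. Among lower genes they included Sema3c, Hhip, Lrrc8b, Kcnn4, Chst15, Jam2, Thbs2, Csf1, Cdon and Megf10.

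**Figure D1:**
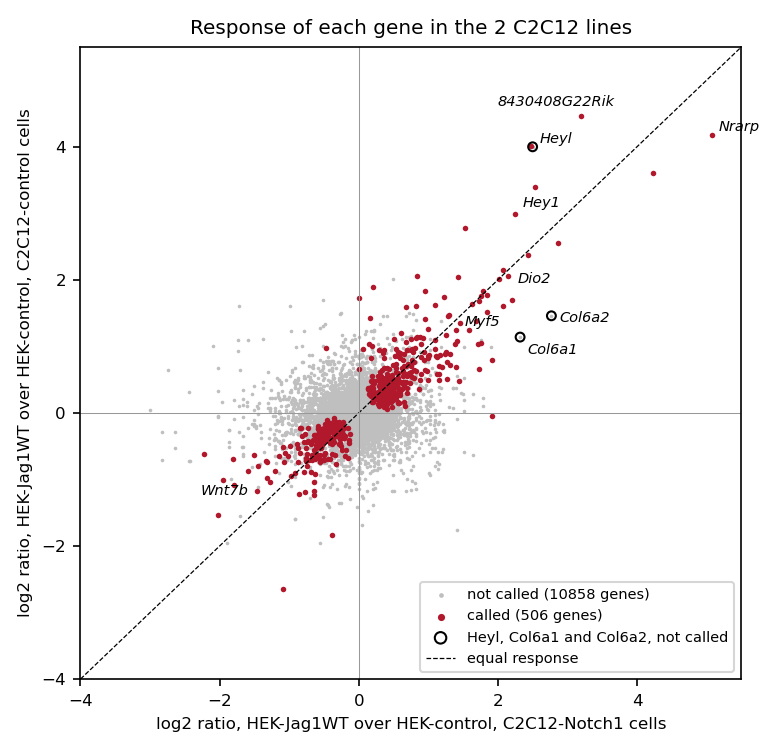
Log2 ratio of each tested mouse gene, HEK-Jag1WT over HEK-control, in C2C12-Notch1 cells (x axis) and C2C12-control cells (y axis), from 1 well per combination with a prior count of 2 reads. Red points are the 506 called genes, grey points are not called, open circles mark 3 genes with large but unequal responses, and the dashed line marks an equal response; Nrarp, 8430408G22Rik and Hey1 lie far up and to the right, and Col6a1 and Col6a2 lie below the line.

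Of the 15 genes listed as Notch targets, 14 were in the table and 10 were tested. The list gave 6 genes higher and 1 lower, with a median log2 change of 0.89, where all tested genes had a median of 0 and 2.69% higher. Among the higher genes, Nrarp and Hey2 passed the filter on low counts only through wells with introduced Jag1. Hes5, Hes7, Dtx1 and Ptcra had at most 2 reads in any of the 4 wells and were not tested.

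Nrarp, which encodes a short ankyrin-repeat protein that binds the Notch transcription complex and shuts it down, had 174 and 75 reads in HEK-Jag1WT wells, against 10 and 2 reads in HEK-control wells. This was 29.9 and 6.30 RPKM in HEK-Jag1WT wells, against 0.747 and 0.195 RPKM in HEK-control wells. The wells did not overlap, and the C2C12-Notch1 well was the higher of each pair. The fitted change was log2 5.26 (SE 0.275, edgeR adjusted p 9.88e-23), the largest among called genes above a mean log2 CPM of 2. Nrarp passed the filter on low counts only through wells with introduced Jag1, and kept its call without the filter. Hey1, a basic helix-loop-helix repressor, had 176 and 119 RPKM in HEK-Jag1WT wells, against 38.1 and 15.1 RPKM in HEK-control wells. It was thus the most abundant of the Hey genes here, and even the lower HEK-Jag1WT well stood above both HEK-control wells. Hey1 rose by log2 2.56 (SE 0.161, edgeR adjusted p 0.000156).

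Heyl, a related repressor that is prominent in muscle precursors, had 33.1 and 111 RPKM in HEK-Jag1WT wells, against 5.98 and 6.94 RPKM in HEK-control wells. Both HEK-Jag1WT wells stood well above both HEK-control wells, but here the C2C12-control well was the higher. Its fitted change of log2 3.41 (SE 0.461) was not called (edgeR adjusted p 0.165). Heyl was called in 4 of the 6 fits that left out 1 well, but not when the HEK-control (adjusted p 0.355) or HEK-Jag1Ndr (0.403) well on C2C12-control cells was dropped; over 15 alternatives the adjusted p ran between 3.25e-280 and 1. Hey2, the third Hey repressor, was barely expressed, with 11 and 5 reads in HEK-Jag1WT wells and 6 and 0 reads in HEK-control wells. Hey2 passed the filter on low counts only through wells with introduced Jag1, and its call was lost without the filter. The call of Hey2 therefore follows in part from how it was kept. Its RPKM stood at 1.92 and 0.427 in HEK-Jag1WT wells and at 0.456 and 0 in HEK-control wells, and the groups overlapped across the lines. Its call (log2 2.35, SE 0.678, edgeR adjusted p 0.027) was lost without any one of the 4 wells, at adjusted p values of 0.115 to 0.352, with 14 alternatives between 0.0269 and 1.

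The classical target Hes1 moved little. It had 32.2 and 33.7 RPKM in HEK-Jag1WT wells, against 29.5 and 19.1 RPKM in HEK-control wells, and rose by log2 0.50 (SE 0.128, edgeR adjusted p 0.0085). Most of that difference lay in C2C12-control cells, where the single-well log2 ratio was 0.83 (95% counting interval 0.50 to 1.18), while in C2C12-Notch1 cells it was 0.18 (-0.17 to 0.52). Dropping the HEK-Jag1WT (adjusted p 0.643) or the HEK-control (0.46) well on C2C12-control cells ended the call, and over 15 alternatives the adjusted p ran between 7.08e-05 and 1. Its log2 change without those wells was 0.27 and 0.25, and 0.80 without the HEK-control well on C2C12-Notch1 cells. Gata3, a transcription factor that is a Notch target in lymphocytes, had 7.37 and 6.93 RPKM in HEK-Jag1WT wells and 4.69 and 3.55 RPKM in HEK-control wells. It rose by log2 0.82 (SE 0.184, edgeR adjusted p 0.00178), and its call ended in the same way (0.111 and 0.0887), with alternatives between 0.00048 and 1. With the HEK-control well on C2C12-control cells left out, 4 of the 10 target genes were called, against 7 over all wells.

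Notch3, a receptor gene that is itself switched on by Notch signalling in mural cells, had 77.6 and 58.7 RPKM in HEK-Jag1WT wells, against 45.5 and 27.3 RPKM in HEK-control wells. The groups did not overlap, and the gene rose by log2 0.95 (SE 0.0787, edgeR adjusted p 1.49e-08). Ccnd1, the cyclin D1 gene, moved the other way, with 99.9 and 119 RPKM in HEK-Jag1WT wells and 141 and 158 RPKM in HEK-control wells. It fell by 0.42 on the log2 scale (SE 0.0589, edgeR adjusted p 4.15e-07), the only target gene called lower. Myc stood at a log2 change of 0.06 (edgeR adjusted p 0.846) and Lfng, a sugar transferase that tunes Notch receptors, at -0.10 (0.881), both with overlapping wells.

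**Figure D2:**
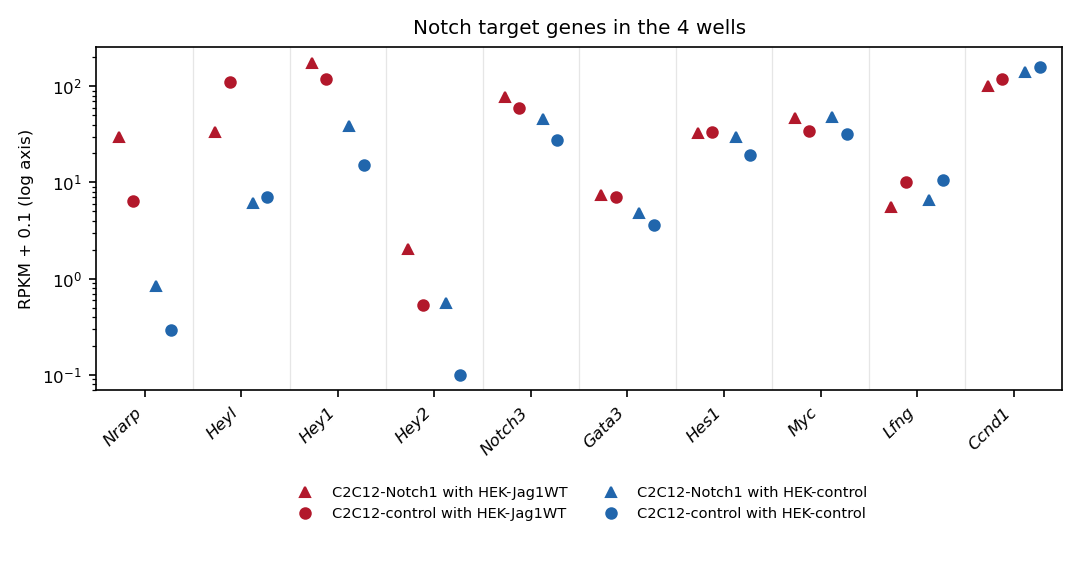
Level of each of the 10 tested Notch target genes in the 4 wells, as RPKM plus 0.1 on a log axis, 1 point per well. Red marks HEK-Jag1WT, blue HEK-control, triangles C2C12-Notch1 and circles C2C12-control cells; Nrarp, Heyl, Hey1 and Notch3 separate by HEK line in both C2C12 lines, Hes1 and Gata3 by less, and Ccnd1 is lower beside HEK-Jag1WT.

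The parts of the pathway other than its targets gave 3 calls. Of the 4 tested Notch receptor and ligand genes other than Jag1 and Notch3, 0 were called by edgeR. Notch1, the receptor gene that the C2C12-Notch1 line carries as a transgene, had 179 and 20.4 RPKM in HEK-Jag1WT wells, against 174 and 9.06 RPKM in HEK-control wells. The level was thus set mainly by the C2C12 line, and within C2C12-control cells the HEK-Jag1WT well was above the HEK-control well by log2 1.19 (95% counting interval 1.02 to 1.38). By DESeq2 0 were called as well, and 1 had an unadjusted edgeR p under 0.05. With 1 well dropped, up to 2 genes of this list were called. Notch1 was then called at log2 0.95 without the HEK-Jag1WT well on C2C12-Notch1 cells (edgeR adjusted p 7.8e-16), at 1.05 without the HEK-control well on those cells (1.55e-22) and at 0.47 without the HEK-Jag1Ndr well on those cells (1.7e-12), with alternatives up to 1. Notch2, a second receptor, stood at 0.16 (edgeR adjusted p 0.299), and was called at 0.31 without the HEK-control well on C2C12-Notch1 cells (0.0129), in a range up to 0.997 over the fits that left out 1 well. The ligand gene Dll1 stood at -0.42 (edgeR adjusted p 0.755).

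Of 37 tested genes for Notch processing, modification and transcription, 1 was called higher and 2 lower, with a median of 0, where 2.69% of all tested genes were higher and 1.76% lower, and 1 call was left without the HEK-Jag1WT well on C2C12-control or the HEK-control well on C2C12-Notch1 cells. Dtx4, a Deltex ubiquitin ligase that acts on the receptor, had 27.3 and 20.4 RPKM in HEK-Jag1WT wells, against 21.8 and 11.7 RPKM in HEK-control wells. It rose by log2 0.58 (SE 0.0884, edgeR adjusted p 2.14e-06), and the 2 groups overlapped through the HEK-control well on C2C12-Notch1 cells. Rbpj, the DNA-binding partner of Notch, stood at -0.30 (edgeR adjusted p 0.337). The corepressor gene Tle2 fell by 0.94 on the log2 scale and Psen2, a gamma-secretase gene, by 0.88, both from few reads. The Tle2 call did not survive dropping the HEK-Jag1WT well on C2C12-control cells (edgeR adjusted p 0.152) or the HEK-control well on C2C12-Notch1 cells (0.289), with alternatives between 4.62e-05 and 1. That of Psen2 ended with any 1 of the 6 wells dropped, at adjusted p values of 0.0517 to 0.511, with alternatives between 0.0356 and 1.

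Over all genes, Notch targets included, the 20 called genes with the largest rise, above a mean log2 CPM of 2 and in the same direction in both lines, ran from Nrarp to Cmklr1 at log2 1.29 (DESeq2 adjusted p 0.127). Of these, 16 were called in each fit that left out 1 well. 8430408G22Rik had 41.8 and 60.5 RPKM in HEK-Jag1WT wells, against 4.39 and 2.48 RPKM in HEK-control wells. Every HEK-Jag1WT well was several times above every HEK-control well, and the gene rose by log2 3.86 (SE 0.186, edgeR adjusted p 5.92e-24). Dio2, the deiodinase that makes active thyroid hormone inside the cell and acts in muscle precursors, had 30.0 and 19.3 RPKM in HEK-Jag1WT wells, against 6.98 and 4.63 RPKM in HEK-control wells. Its response was nearly equal in both lines, at log2 2.14 in C2C12-Notch1 and 2.06 in C2C12-control cells, and the fitted rise was 2.14 (SE 0.102, edgeR adjusted p 1.77e-24).

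Sec14l2, which encodes a lipid-binding protein that carries tocopherol, had 83.8 and 68.7 RPKM in HEK-Jag1WT wells, against 21.4 and 17.1 RPKM in HEK-control wells. The log2 ratio was 2.01 in C2C12-Notch1 cells and 2.02 in C2C12-control cells, and the fit gave 2.01 (SE 0.0892, edgeR adjusted p 7.91e-26). Gpr133, an adhesion G protein-coupled receptor gene, was expressed at a low level, with 2.31 and 3.31 RPKM in HEK-Jag1WT wells and 0.372 and 0.558 RPKM in HEK-control wells. Wisp2, a matricellular protein gene of the CCN family, had 19.6 and 8.66 RPKM in HEK-Jag1WT wells and 5.47 and 2.40 RPKM in HEK-control wells. Both separated the groups in full, with rises of log2 2.59 and 1.84. Tgfb2 and Myf5, also among the 20, are described with their gene groups.

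The remaining members ranged from log2 1.29 to 1.80. They included the corepressor gene Cbfa2t3 at 1.80, the channel-family gene Tmc3 at 1.78, the neuronal calcium sensor gene Ncald at 1.74, the cyclic nucleotide phosphodiesterase gene Pde1b at 1.66, the villin-like gene Vill at 1.55 (DESeq2 adjusted p 0.124) and the zinc finger factor gene Glis3 at 1.32. Tmc3 stood at 3.03 without the HEK-control well on C2C12-Notch1 cells. The lipocalin gene Apod rose by log2 1.5, the protease-activated receptor gene F2rl1 by 1.46 and Rassf4, of the Ras-association family, by 1.35, but each depended on a single well or pair of wells. Apod lost its call without the HEK-Jag1WT well on C2C12-Notch1 cells (edgeR adjusted p 0.0855). On C2C12-control cells, F2rl1 needed both the HEK-Jag1WT well (0.562 without it) and the HEK-control well (0.382), where it stood at log2 0.94 and 0.88, and Rassf4 the HEK-control well (0.226). Over all alternatives their adjusted p reached 1, from as low as 0.000133 for Apod, 3.95e-11 for F2rl1 and 3.19e-05 for Rassf4.

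Some genes went from almost no reads to a clear signal, and are named after their values were seen. Gpbar1, the membrane bile acid receptor gene, had 25 and 22 reads in HEK-Jag1WT wells and 1 and 0 reads in HEK-control wells. Scaled to library size, this was a ratio of 64.5 (95% counting interval 11 to 2600), called by edgeR (adjusted p 1.65e-08) and not by DESeq2 (0.138). Mcpt1, a mast cell protease gene, had 9 and 48 reads in HEK-Jag1WT wells and 2 and 1 reads in HEK-control wells, a ratio of 26.1 (8.48 to 130). Prelp, a small matrix proteoglycan gene, had 7 and 55 reads in HEK-Jag1WT wells and 1 and 3 reads in HEK-control wells. Over all tested genes, the wells of the HEK-Jag1WT and HEK-control groups did not overlap for 18.7%, in either direction. In all 3 genes every HEK-Jag1WT well lay above every HEK-control well, which choosing them for few HEK-control reads favours. All 3 passed the filter on low counts only through wells with introduced Jag1. For Gpbar1, with 0 and 4 reads in HEK-Jag1Ndr wells, these were the HEK-Jag1WT wells alone. The calls and intervals of these genes therefore follow in part from how they were chosen.

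Another set of genes, also chosen after their values were seen, moved by smaller folds at high read numbers. Serinc5, a membrane protein gene, had 58.0 and 82.6 RPKM in HEK-Jag1WT wells, against 28.2 and 43.3 RPKM in HEK-control wells, and rose by log2 1.01 (SE 0.067, edgeR adjusted p 4.41e-18). Asb5, a muscle gene of the ankyrin and SOCS box family, had 316 and 130 RPKM in HEK-Jag1WT wells and 151 and 73.6 RPKM in HEK-control wells, likewise at log2 1.01. Its wells overlapped between the groups because the lines differed, while it rose within each line. The adaptor gene Blnk rose by log2 0.94, the mTOR inhibitor gene Ddit4 by 0.85, the semaphorin receptor gene Plxnd1 by 0.83, the actin-linked kinase substrate gene Marcks by 0.78 and the transcription cofactor gene Lbh by 0.68. Among receptors and guidance genes, Ntn4, a netrin, rose by 1.28, S1pr1, a sphingosine-1-phosphate receptor, by 1.02 and Calcrl, a receptor for adrenomedullin and CGRP, by 0.88.

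**Figure D3:**
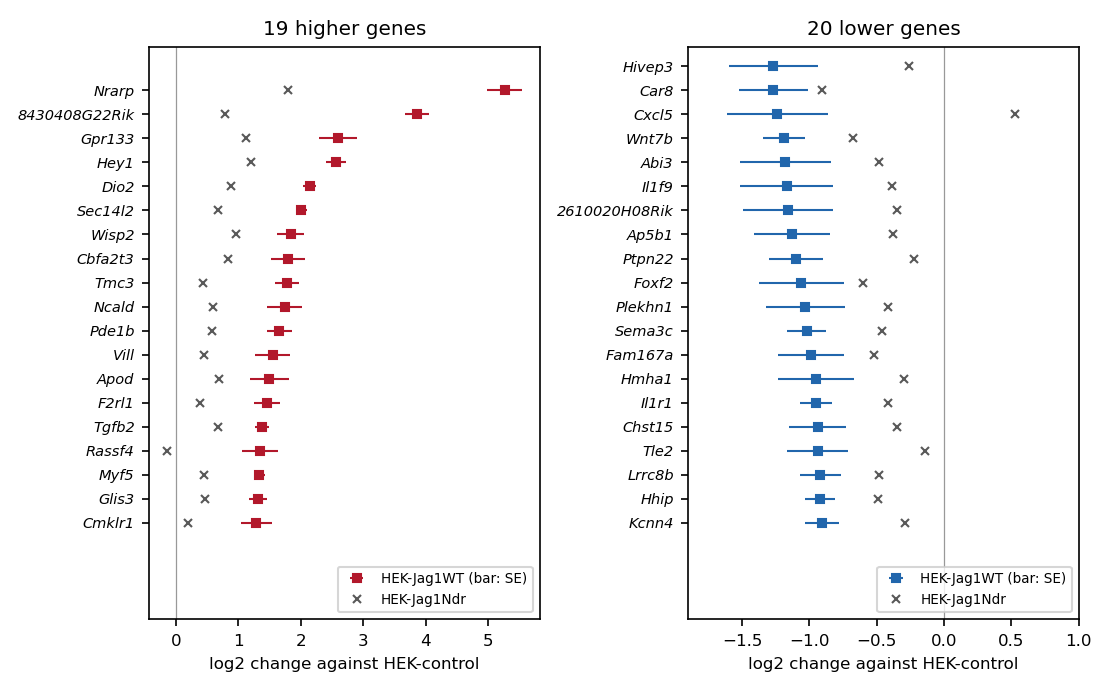
Fitted log2 change of 19 of the 20 higher (left) and of the 20 lower (right) called mouse genes that changed most among those above a mean log2 CPM of 2 and of one sign in both C2C12 lines, HEK-Jag1WT against HEK-control (squares, bars are the SE), with the fitted change beside HEK-Jag1Ndr as crosses. Each SE is the absolute log2 change over the square root of the F statistic of the edgeR test over 6 wells. Nrarp at 5.26 and 8430408G22Rik at 3.86 stand apart on the left; on the right all 20 lie between -1.27 and -0.91 and many have wide bars. Both comparisons share the HEK-control wells.

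By the same limits on level and sign, the 20 largest called falls lay between log2 -1.27 and -0.91, and several rested on few reads. Of the 14 called falls over 2-fold, 2 were under a mean log2 CPM of 2, and these are named after their values were seen. Both passed the filter on low counts only through wells without wild-type Jag1, so their calls follow in part from how they were kept. Tbc1d8, a gene of the TBC domain family, had 5 and 2 reads in HEK-Jag1WT wells and 28 and 20 reads in HEK-control wells, at log2 -2.11, and lost its call without either well on C2C12-control cells (edgeR adjusted p 0.341 and 0.254). Amigo2, a cell adhesion gene, had 0 and 7 reads in HEK-Jag1WT wells and 7 and 21 reads in HEK-control wells, and was called in 1 of the 6 fits that left out 1 well. DESeq2 called neither, at adjusted p values of 0.471 for Tbc1d8 and 1 for Amigo2. Of the 20, 7 were called in each fit that left out 1 well, and the calls of the other 13 depended on at least 1 well. Among the 13 were Hivep3, Car8, Abi3, Il1f9, Ap5b1, Ptpn22, Foxf2, Plekhn1, Fam167a and Hmha1, and the adjusted p of the chemokine gene Cxcl5 reached 0.965 once the HEK-control well on C2C12-control cells was dropped. In the HEK-Jag1WT well on C2C12-Notch1 cells, Cxcl5 had 0 reads, Car8 and Il1f9 had 1 read each, and Ptpn22 and Plekhn1 had 2 each.

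Wnt7b, a secreted Wnt ligand, had 5.00 and 4.74 RPKM in HEK-Jag1WT wells, against 13.3 and 10.4 RPKM in HEK-control wells. Both HEK-Jag1WT wells were under both HEK-control wells, and it fell by 1.19 on the log2 scale (SE 0.158, edgeR adjusted p 9.03e-08). Sema3c, a secreted semaphorin, had 4.47 and 3.86 RPKM in HEK-Jag1WT wells and 7.92 and 9.13 RPKM in HEK-control wells. It fell by 1.02 (SE 0.145, edgeR adjusted p 4.93e-07), again with no overlap. Il1r1, the interleukin-1 receptor gene, had 10.2 and 5.00 RPKM in HEK-Jag1WT wells and 20.8 and 10.3 RPKM in HEK-control wells, and so fell within each line, by 0.95 on the log2 scale (SE 0.119, edgeR adjusted p 1.95e-08), with the lines at different levels. Hhip, an inhibitor of Hedgehog ligands, had 2.76 and 5.21 RPKM in HEK-Jag1WT wells and 5.43 and 10.0 RPKM in HEK-control wells, and fell by 0.92. The volume-regulated channel subunit gene Lrrc8b fell by 0.92 (DESeq2 adjusted p 0.0513), the calcium-activated potassium channel gene Kcnn4 by 0.91 and the chondroitin sulfotransferase gene Chst15 by 0.94 (DESeq2 adjusted p 0.24) on the log2 scale. Kcnn4 stood at -1.45 and Chst15 at -1.77 without the HEK-Jag1WT well on C2C12-control cells, and Chst15 at -1.55 without the HEK-control well on the same cells.

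Lower genes with many reads, chosen after their values were seen, included Ets2, a transcription factor downstream of Ras signalling, with 32.0 and 28.6 RPKM in HEK-Jag1WT wells and 60.6 and 48.6 RPKM in HEK-control wells. It fell by 0.80 on the log2 scale (SE 0.076, edgeR adjusted p 3.66e-12). Errfi1, a feedback inhibitor of the EGF receptor, had 38.1 and 45.7 RPKM in HEK-Jag1WT wells and 61.2 and 88.3 RPKM in HEK-control wells, and also fell by 0.80. All 4 wells of each gene separated by HEK line. Scx, the tendon transcription factor scleraxis, fell by 0.79, the integrin gene Itga3 by 0.68 and Hmga2, a chromatin protein of undifferentiated cells, by 0.63.

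The muscle determination genes Myf5 and Myod1 moved in opposite directions. Of 19 tested myogenic regulators, 2 were higher and 1 lower, with a median of 0.03, where 2.69% of all tested genes were higher and 1.76% lower, and 5 were called without the HEK-Jag1WT well on C2C12-control cells. Myf5, the first myogenic determination factor to appear in muscle precursors, had 78.5 and 87.9 RPKM in HEK-Jag1WT wells, against 30.7 and 37.4 RPKM in HEK-control wells. The wells of each HEK line lay close together, and the log2 ratio was 1.4 in C2C12-Notch1 cells (95% counting interval 1.19 to 1.62) and 1.25 in C2C12-control cells (1.07 to 1.45). The fit gave 1.34 (SE 0.0864, edgeR adjusted p 1.83e-18). Myod1, the determination factor that drives entry into differentiation, had 52.2 and 27.8 RPKM in HEK-Jag1WT wells and 91.1 and 49.0 RPKM in HEK-control wells. It fell by a like amount in each line, by 0.75 in C2C12-Notch1 and 0.79 in C2C12-control cells on the log2 scale, and by 0.77 in the fit (SE 0.0906, edgeR adjusted p 4.03e-09). Its wells overlapped between the HEK lines only across C2C12 lines.

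Id3, which binds and blocks the E-protein partners of Myod1, had 154 and 87.1 RPKM in HEK-Jag1WT wells, against 94.2 and 40.8 RPKM in HEK-control wells, and rose by log2 0.93 (SE 0.1, edgeR adjusted p 4.21e-10). Myog, the differentiation factor that follows Myod1, stood at -0.37 (edgeR adjusted p 0.18) and Pax7, the satellite cell factor, at 0.33 (0.49). Neither passed in the fit of all wells, and with the HEK-Jag1WT well on C2C12-control cells dropped Myog was called at -0.61 (edgeR adjusted p 0.0459), against up to 0.988 with another well dropped. Cdon, a surface co-receptor that promotes myogenesis, fell by 0.43 on the log2 scale (edgeR adjusted p 8.81e-06) and Megf10, a surface receptor of satellite cells, by 0.46 (6.95e-06), both named after their values were seen.

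The sarcomere list, the contractile machinery made in differentiation, is set beside 4.45% called and a median of 0 over all tested genes. Of 29 tested genes 1 was called, with a median of -0.02, and 0 to 2 were called with 1 well dropped. It was the troponin T gene Tnnt2, higher by log2 0.34, and not called once the HEK-Jag1WT well on C2C12-control cells was dropped (edgeR adjusted p 0.259), with alternatives between 1.31e-05 and 1. Of 15 genes for myoblast adhesion and fusion, 2 were higher and 1 lower, where 2.69% of all tested genes were higher and 1.76% lower. Cdh15, or M-cadherin, the main cadherin between muscle precursors, had 698 and 498 RPKM in HEK-Jag1WT wells, against 371 and 190 RPKM in HEK-control wells. It rose by log2 1.18 (SE 0.089, edgeR adjusted p 4.35e-06), with no overlap. Jam2, a junctional adhesion molecule that supports fusion, fell by 0.46 on the log2 scale (edgeR adjusted p 4.5e-07), with 50.6 and 71.6 RPKM in HEK-Jag1WT wells and 76.1 and 97.1 RPKM in HEK-control wells. The C2C12 marker list, which shares genes with the muscle lists, had 5 of 16 tested genes higher (Myf5, Cdh15, Itga7, Mest and Cd44). Of the same list 2 were lower (Myod1 and Chrna1), with a median of 0.03, beside the same 2.69% and 1.76%. Its 7 calls became 3 without the HEK-Jag1WT well on C2C12-control cells, where the calls of Itga7 at 0.28, Cd44 at 0.26, Mest at 0.63 and Chrna1 at -0.24 ended (edgeR adjusted p 0.273, 0.3, 0.123 and 0.0625). Other wells mattered too, since Itga7 was lost in 2, Mest in 4 and Chrna1 in 3 of the 6 fits that left out 1 well.

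Among the matrix lists, collagen genes had the largest fitted changes. Of 16 tested collagen genes 2 were called, both higher, with a median of 0.08, where 2.69% of all tested genes were higher. The count was 1 without the HEK-control well on C2C12-control cells and up to 5 with another well dropped. Col5a3, a chain of collagen V, had 190 and 122 RPKM in HEK-Jag1WT wells, against 107 and 55.8 RPKM in HEK-control wells. It rose within both lines and without overlap between the groups, by log2 1.00 in the fit (SE 0.0655, edgeR adjusted p 3.97e-14). Its partner chains Col5a1 and Col5a2 stood at 0.06 and -0.03 and were not called.

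Collagen VI, which is made of the chains of Col6a1, Col6a2 and Col6a3, gave the largest collagen changes. Col6a1 had 130 and 127 RPKM in HEK-Jag1WT wells, against 26.7 and 58.5 RPKM in HEK-control wells. Col6a2 had 41.8 and 41.7 RPKM in HEK-Jag1WT wells, against 6.24 and 15.3 RPKM in HEK-control wells. For both genes the 2 C2C12 lines stood apart beside HEK-control and at nearly the same level beside HEK-Jag1WT. The fitted changes of log2 1.69 and 1.98 were not called (edgeR adjusted p 0.392 and 0.433). Each was called in 4 of the 6 fits that left out 1 well. The exceptions were the fits that dropped, on C2C12-control cells, the HEK-control well (0.62 for Col6a1 and 0.691 for Col6a2) or the HEK-Jag1Ndr well (0.566 for Col6a1 and 0.531 for Col6a2). Their alternatives ran up to 1, the lowest being 3.33e-135 for Col6a1 and 6.71e-89 for Col6a2. Col6a3 rose by log2 0.39, with 60.7 and 79.3 RPKM in HEK-Jag1WT wells and 46.7 and 62.9 RPKM in HEK-control wells. That call ended without the HEK-Jag1WT well on C2C12-Notch1 cells (edgeR adjusted p 0.0639) or the HEK-control well on C2C12-control cells (0.287), with alternatives between 2.51e-10 and 1.

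Of 36 tested matrix glycoprotein and enzyme genes, 3 were higher and 2 lower, with a median of 0.03, and the 5 calls became 8 without either HEK-Jag1Ndr well. Nid2, a basement membrane linker, had 31.3 and 26.5 RPKM in HEK-Jag1WT wells and 21.4 and 14.5 RPKM in HEK-control wells, and rose by log2 0.71 (edgeR adjusted p 1.67e-06). The thrombospondin genes parted, Thbs1 rising by 0.40 and Thbs2 falling by 0.37 on the log2 scale. For the matrix glycoprotein list and the next, the shares over all tested genes were 2.69% higher and 1.76% lower. Of 21 tested satellite cell quiescence genes 2 were higher, the collagen genes Col5a3 and Col6a3 just named. In that list 1 was lower, the heparan sulfate proteoglycan gene Sdc4, which fell by 0.40 on the log2 scale. These 3 calls became 5 in 4 of the 6 fits that left out 1 well, and were 2 without the HEK-control well on C2C12-control cells. Among 12 mural and contractile genes 3 were higher, Notch3, Pdgfrb and Cspg4, where 2.69% of all tested genes were higher. Pdgfrb, the PDGF receptor of pericytes, had 25.3 and 68.6 RPKM in HEK-Jag1WT wells and 15.9 and 41.7 RPKM in HEK-control wells and rose by log2 0.73 in the fit (SE 0.071, edgeR adjusted p 1.02e-11), at nearly the same ratio in both lines. Cspg4, the pericyte proteoglycan NG2, stood at 0.45 and was called in 3 of the 6 fits that left out 1 well.

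**Figure D4:**
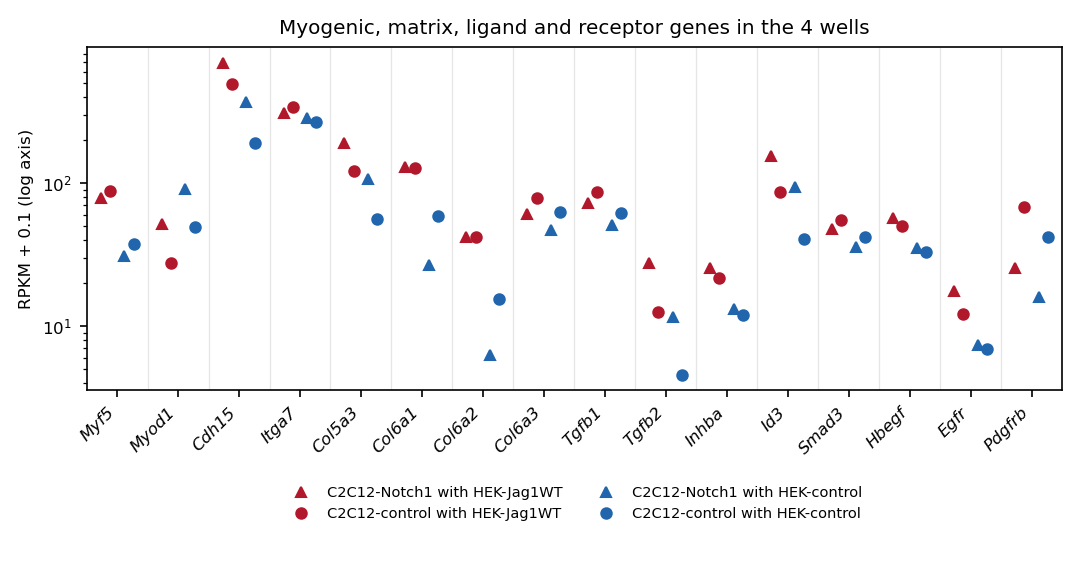
Level of 16 myogenic, matrix, ligand and receptor genes in the 4 wells, as RPKM plus 0.1 on a log axis, 1 point per well. Red marks HEK-Jag1WT, blue HEK-control, triangles C2C12-Notch1 and circles C2C12-control cells; Myf5 and Cdh15 are higher and Myod1 lower beside HEK-Jag1WT within each C2C12 line, and Col6a1 and Col6a2 meet at one level beside HEK-Jag1WT.

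The TGF-beta and BMP list had 9 calls, the most in number of the 24 lists. Of 27 tested TGF-beta and BMP genes 7 were higher and 2 lower, with a median of 0.05, where 2.69% of all tested genes were higher; 9 calls became 6 without the HEK-Jag1WT well on C2C12-Notch1 cells and up to 10 with another well dropped. Among the ligands, Tgfb2 had 27.5 and 12.4 RPKM in HEK-Jag1WT wells, against 11.5 and 4.48 RPKM in HEK-control wells. It rose by log2 1.38 (SE 0.107, edgeR adjusted p 3.4e-15), with like ratios of 1.3 in C2C12-Notch1 and 1.47 in C2C12-control cells. Tgfb1 had 73.2 and 86.7 RPKM in HEK-Jag1WT wells and 50.9 and 62.1 RPKM in HEK-control wells, and rose by 0.53 (SE 0.0758, edgeR adjusted p 4.77e-07) without overlap.

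Inhba, the activin A subunit gene, had 25.3 and 21.5 RPKM in HEK-Jag1WT wells, against 13.1 and 11.9 RPKM in HEK-control wells, and rose by log2 0.98 (SE 0.153, edgeR adjusted p 3.75e-06). Smad3, which carries TGF-beta and activin signals to the nucleus, had 48.0 and 55.6 RPKM in HEK-Jag1WT wells and 35.6 and 41.7 RPKM in HEK-control wells, and rose by 0.45 (SE 0.066, edgeR adjusted p 7.39e-07). The target genes Smad7 at 0.14, Id1 at 0.27 and Ctgf at -0.02 were among those not called. Other calls of the list were Tgfb3 at 0.28, Skil at -0.27 and Ltbp2 at -0.32, lost in 5, 3 and 3 of the 6 fits that left out 1 well, among them that without the HEK-Jag1WT well on C2C12-Notch1 cells for all 3.

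Hbegf, a membrane-anchored ligand of the EGF family, had 57.0 and 50.2 RPKM in HEK-Jag1WT wells, against 35 and 33.1 RPKM in HEK-control wells, and rose by log2 0.69 (SE 0.0872, edgeR adjusted p 2.16e-08). Egfr, the receptor, had 17.5 and 12.0 RPKM in HEK-Jag1WT wells and 7.34 and 6.89 RPKM in HEK-control wells, and rose by 1.22 (edgeR adjusted p 8.95e-07). The ligand gene Btc had 11 and 13.1 RPKM in HEK-Jag1WT wells and 4.65 and 6.94 RPKM in HEK-control wells, and rose by 1.05 (edgeR adjusted p 1.96e-06). Egfr and Btc are in no list and are named after their values were seen. For the lists that follow, 2.69% of all tested genes were higher and 1.76% lower. In the FGF and MAPK feedback list 3 of 19 tested genes were higher and 1 lower, with a median of 0.03, and 1 gene was left without either the HEK-Jag1WT or the HEK-control well on C2C12-control cells, and 2 without the HEK-Jag1WT well on C2C12-Notch1 cells. The Sprouty genes Spry1 at 0.74, Spry2 at -0.10 and Spry4 at 0.22 were not called. Dusp1, a MAP kinase phosphatase, had 61.5 and 69.0 RPKM in HEK-Jag1WT wells and 28.9 and 39.0 RPKM in HEK-control wells, and rose by 0.98 (SE 0.0921, edgeR adjusted p 3.19e-12). It was the one gene called among 18 immediate early genes, which had 2 calls without the HEK-Jag1WT well on C2C12-Notch1 cells, with Fos at 0.43, Jun at 0.15 and Egr1 at 0.29 not called.

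The lists for cell cycle, interferon response, cholesterol synthesis, unfolded protein response, p53 and YAP held 0 to 3 calls each, where 2.69% of all tested genes were higher and 1.76% lower. Of 32 tested cell cycle genes 1 was called, E2f2 at -0.54, with a median of 0.02, and that call ended without either the HEK-Jag1WT or the HEK-control well on C2C12-Notch1 cells. Of 25 interferon response genes 0 were called by edgeR and 0 by DESeq2, with 4 at an unadjusted edgeR p under 0.05 and a median of -0.05, and 1 was called without either HEK-control well. Cholesterol synthesis had 1 of 18 higher, Cyp51 at 0.24, and unfolded protein response 3 of 19 higher, at 0.20 to 0.26, with 0 calls in either list by edgeR when either HEK-Jag1WT well was dropped. At an unadjusted edgeR p under 0.05 each of these 2 lists had 4 genes over all wells, and DESeq2 called 0. For p53 targets the counts were 1 higher and 1 lower of 16, with 1 left in 3 of the 6 fits that left out 1 well, and for YAP targets 3 higher of 16, which became 1 without either well on C2C12-Notch1 cells. Among YAP targets Amotl1, an angiomotin, rose by log2 0.55 (SE 0.0608, edgeR adjusted p 4.36e-10).

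Hypoxia and glycolysis genes had 4 higher and 1 lower of 22, beside those 2.69% and 1.76%, with a median of 0.10, and 2 calls remained without the HEK-Jag1WT well on C2C12-Notch1 cells or without either HEK-control well. Ndrg1, a stress-induced gene, had 79.5 and 192 RPKM in HEK-Jag1WT wells and 54.8 and 156 RPKM in HEK-control wells. It rose by log2 0.42 (edgeR adjusted p 6.95e-06), with the lines far apart in level. Ankrd37, a gene induced by low oxygen, had 18.6 and 32.3 RPKM in HEK-Jag1WT wells and 7.87 and 17.6 RPKM in HEK-control wells, and stood at 0.99 (edgeR adjusted p 0.00035), a call that ended without the HEK-control well on C2C12-control cells (0.0636), with alternatives between 1.24e-05 and 1.

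NF-kB and cytokine genes had 1 higher and 3 lower of 16 tested, with a median of -0.21, and the 4 calls became 2 without the HEK-Jag1WT well on C2C12-Notch1 cells. Il6, which is known to act on satellite cells, had 6 and 23 reads in HEK-Jag1WT wells and 0 and 2 reads in HEK-control wells. The ratio was 19.9 over the group totals scaled to library size (95% counting interval 5.03 to 172). Il6 passed the filter on low counts only through wells with introduced Jag1. Its call (edgeR adjusted p 0.000306) ended without the HEK-control well on C2C12-control cells (0.0622), with alternatives between 6.51e-05 and 1. Csf1, the macrophage growth factor, fell by 0.42 on the log2 scale (edgeR adjusted p 9.51e-06), with 46.1 and 34.6 RPKM in HEK-Jag1WT wells and 67.3 and 44.7 RPKM in HEK-control wells. Of 18 tested Wnt genes 2 were called, Wnt7b and Wnt10b, both lower, with a median of -0.13. For this list and the NF-kB and cytokine list, the shares over all tested genes were 2.69% higher and 1.76% lower. Wnt10b had 2 reads in the HEK-Jag1WT well on C2C12-Notch1 cells and lost its call without either well on C2C12-control cells. The HEK marker list had 0 of 7 tested genes called by edgeR and 0 by DESeq2, with 2 at an unadjusted edgeR p under 0.05, both lower, and a median of -0.12.

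**Figure D5:**
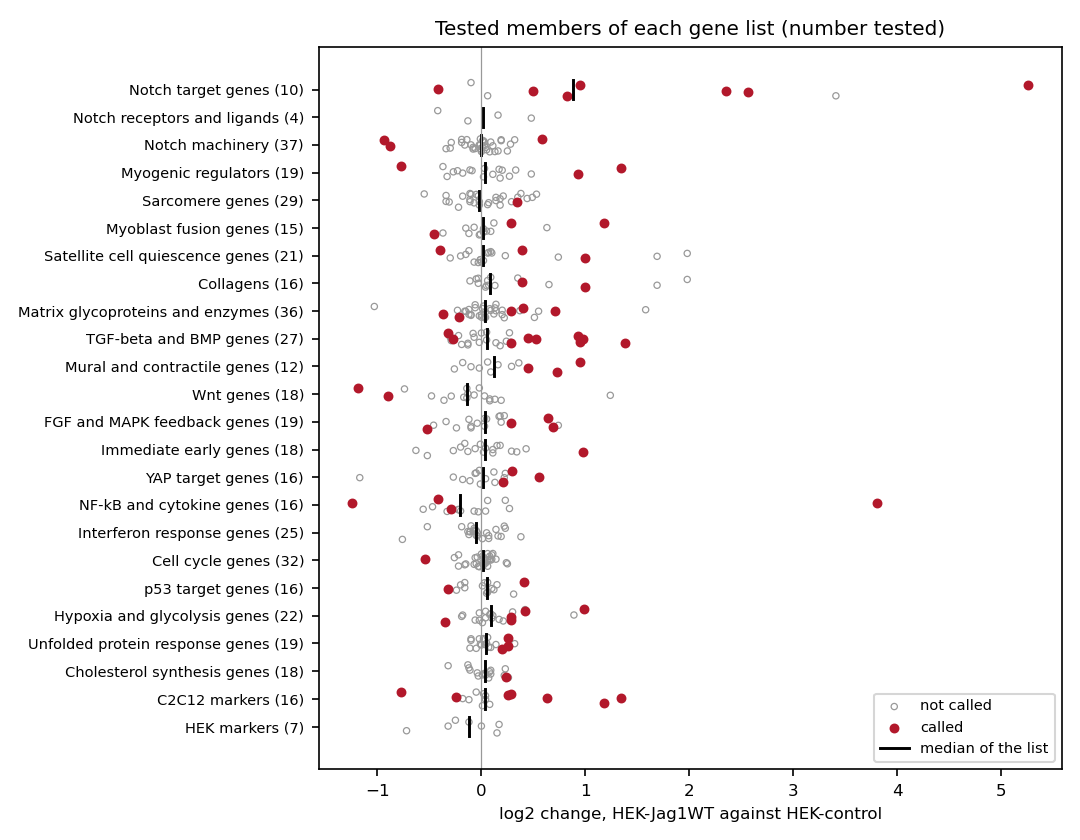
Fitted log2 change, HEK-Jag1WT against HEK-control, of each tested member of 24 gene lists, with called genes in red, other genes as open circles and the list median as a bar. The Notch target list has its median at 0.89, while the medians of the other lists lie between -0.21 and 0.12. Jag1 is left out.

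A different response in the 2 C2C12 lines was called for few genes. The term used marks 1 well, HEK-Jag1WT on C2C12-Notch1 cells, which had the fewest mouse reads. A response of the line and a deviation of that well cannot be told apart. The term for a different response to HEK-Jag1WT in C2C12-Notch1 cells called 9 of 11636 tested genes (0.0773%), 6 higher and 3 lower in the C2C12-Notch1 line, and 487 genes had an unadjusted p under 0.05. Its 1 residual degree of freedom rests on taking the effect of HEK-Jag1Ndr as equal in both lines. For some of the called genes it was not equal. The single-well log2 ratios of HEK-Jag1Ndr over HEK-control were 1.26 in C2C12-Notch1 and 1.98 in C2C12-control cells for Heyl, -0.10 in C2C12-Notch1 and 0.50 in C2C12-control cells for Notch1, and -0.36 in C2C12-Notch1 and 0.08 in C2C12-control cells for Hspg2. The fitted differences therefore depart from the differences of the HEK-Jag1WT ratios. Among Notch targets Heyl rose less in C2C12-Notch1 cells, by log2 2.50 (95% counting interval 2.23 to 2.81), than in C2C12-control cells, by 4 (3.76 to 4.29), and the fitted difference was -1 (SE 0.149, edgeR adjusted p 7.6e-08). Hey1 likewise rose by 2.25 (2.09 to 2.43) in C2C12-Notch1 cells and by 2.99 (2.74 to 3.27) in C2C12-control cells, a difference of -0.55 (edgeR adjusted p 0.0247). In the opposite direction, Col6a1 rose by 2.32 (2.18 to 2.48) in C2C12-Notch1 cells and by 1.14 (1.04 to 1.26) in C2C12-control cells, and Col6a2 by 2.77 (2.49 to 3.10) in C2C12-Notch1 cells and by 1.46 (1.25 to 1.69) in C2C12-control cells. With scaling by library size alone, 3 of the 9 were called, Col6a1, Col6a2 and Heyl. Hey1 nonetheless stood higher in C2C12-Notch1 than in C2C12-control cells beside either HEK line.

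Beside HEK-Jag1Ndr, 59 of the 11364 genes (0.519%) were called against the same HEK-control wells, so the 2 comparisons share those wells. For Nrarp the fitted change was 5.26 beside HEK-Jag1WT and 1.79 beside HEK-Jag1Ndr. For Hey1 it was 2.56 beside HEK-Jag1WT and 1.20 beside HEK-Jag1Ndr. For Myf5 it was 1.34 beside HEK-Jag1WT and 0.46 beside HEK-Jag1Ndr. Id3 stood at 0.93 beside HEK-Jag1WT and 0.82 beside HEK-Jag1Ndr, and Myod1 stood at -0.77 beside HEK-Jag1WT and 0.05 beside HEK-Jag1Ndr. Against HEK-control, the HEK-Jag1Ndr changes of Nrarp (edgeR adjusted p 0.0395), Myf5 (0.00148) and Id3 (4.51e-08) were called. Those of Hey1 (0.0581) and Myod1 (0.957) were not.

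The human table of the same wells gives the level of the gene of the same symbol in the HEK cells. Of the 20 higher genes chosen by rise above a mean log2 CPM of 2, 19 had a match, and 6 of these, among them Gpr133, Dio2, Wisp2, Myf5 and Cmklr1, were under 0.1 RPKM in all 4 human samples, so that the HEK cells held almost no reads of them. The other matched higher genes reached that level in at least 1 human sample. Of the 20 lower genes 17 had a match, and 1, Ptpn22, was under 0.1 RPKM in all 4. The share over all tested genes was not counted. Human HEY1 stood at 65.6 and 58.1 RPKM in HEK-Jag1WT wells, against 31.4 and 31.4 RPKM in HEK-control wells, and NOTCH3 at 9.34 and 11.4 RPKM in HEK-Jag1WT wells, against 5.94 and 7.47 RPKM in HEK-control wells. For these 2 the human reads moved the same way as the mouse reads, and so did CCND1, at 28.1 and 27.8 RPKM in HEK-Jag1WT wells and 50.5 and 50.6 RPKM in HEK-control wells. For others they moved the opposite way, as with NRARP at 17.8 and 18.6 RPKM in HEK-Jag1WT wells and 25.7 and 24.8 RPKM in HEK-control wells. The same held for HEYL, at 3.77 and 5.00 RPKM in HEK-Jag1WT wells and 8.62 and 8.56 RPKM in HEK-control wells, and for SEMA3C, at 16.0 and 15.5 RPKM in HEK-Jag1WT wells and 5.65 and 5.51 RPKM in HEK-control wells. The sources used here do not say how reads were assigned to a species, and the part of human reads in the mouse counts of HEY1, NOTCH3 and CCND1 was not tested.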

How the data were processed

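Libraries of polyA RNA from 6 co-culture wells came from an unstranded TruSeq kit, per the labels' protocols, so overlapping antisense genes cannot be told apart. The submitters' processing notes name STAR, mm9 and hg19. Neither the counter nor the way reads were assigned to a species is stated in these sources. The authors deposited read counts, whole numbers for each RefSeq gene in each well, and RPKM values, reads per kilobase scaled to the reads of a species, per the file headers. Of 23905 mouse entries, 472 exact repeats were left out.

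The deposited counts were fitted with edgeR 4.0.16 in R 4.3.3 (TMM scaling, filterByExpr with a minimum count of 10, robust quasi-likelihood test, Benjamini-Hochberg over all tested genes at 0.05), with additive terms for the C2C12 line and the HEK line over 6 wells and 2 residual degrees of freedom. Pairing by C2C12 line comes from the design, since each HEK line was placed on both lines. Jag1 stayed in the fit and left every count. Each SE given is the absolute log2 change over the square root of the F statistic of the test. It is worked back from the test rather than estimated by the fit. Wells sharing a line served as replicates, so p-values cover the differences among these wells, which may be technical. Single-well log2 ratios use a prior count of 2 and exact conditional 95% intervals, which cover counting error only. In simulated data of this comparison (11267 genes), 64.3% of genes changed 1.5-fold and 91.8% of those changed 2-fold were called. Genes left unchanged gave 10 calls. The counts were drawn from the fit with its own estimated spread, and only genes at a mean log2 CPM of 2 or more were changed. The simulation holds no unequal response of the C2C12 lines, so it does not give these rates for the real wells.

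The genes compared and the 24 lists were chosen with earlier results of these data known. Named genes are the 20 higher and 20 lower called genes with the largest change, a mean log2 CPM of 2 or more and one sign in both lines, all tested Notch targets, up to 5 called members per list by smallest p, and 43 genes singled out after their values were seen. Some genes that these rules choose are not reported here. Alternatives were other scalings, DESeq2 1.42.0, limma 3.58.1 on log2 RPKM plus 0.1, no filter, 4 wells only, no line term, the non-robust test, leaving out Jag1 reads, and leaving out each well. The mouse genome, promoters and proteins were not used here.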

Additional observations from a re-analysis of the deposited data

Results flagged for a closer look

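A different response to HEK-Jag1WT in the C2C12 lines was called for 9 genes, by a term that marks 1 well, HEK-Jag1WT on C2C12-Notch1 cells. A response of the line and a deviation of that well cannot be told apart. The differences are given as C2C12-Notch1 minus C2C12-control on the log2 scale, from an edgeR fit with 1 residual degree of freedom that takes the effect of HEK-Jag1Ndr as equal in both lines, with Benjamini-Hochberg adjustment over 11636 genes. The Notch targets Heyl (-1, adjusted p 7.6e-08) and Hey1 (-0.55, adjusted p 0.0247) and the receptor gene Notch1 (-0.76, adjusted p 8.72e-06) rose less in C2C12-Notch1 cells. For Notch1 the single-well log2 ratio was 0.09 (95% counting interval 0.04 to 0.15) in C2C12-Notch1 cells, where most reads come from the transgene, and 1.19 (1.02 to 1.38) in C2C12-control cells.

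The collagen VI chains Col6a1 (1.18, adjusted p 3.04e-19) and Col6a2 (1.51, adjusted p 2.64e-15) rose more in C2C12-Notch1 cells, where they started from the lower level beside HEK-control. Fam132b, the erythroferrone gene, rose in both lines and more in C2C12-Notch1 cells (0.52, adjusted p 0.0459). The endocytic receptor gene Lrp1 (0.62, adjusted p 0.000247), the perlecan gene Hspg2 (0.57, adjusted p 0.00167) and the prostaglandin synthase gene Ptgs2 (0.69, adjusted p 0.0448) had small single-well ratios of opposite sign in the lines. For Ptgs2 these were 0.27 in C2C12-Notch1 and -0.59 in C2C12-control cells. With wells scaled by library size only, Heyl, Col6a1 and Col6a2 were called and the other 6 were not, at adjusted p values from 0.237 to 0.821.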

How the results depend on the processing

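The 506 calls, 306 higher and 200 lower, numbered 504 to 534 under other scalings and without the filter, 503 with 4 wells only, 509 with the non-robust test and 507 without Jag1 reads. DESeq2 called 150 (114 higher, 36 lower), 146 of them shared, and limma on log2 RPKM 87 (57 higher, 30 lower). With no replicate block, that is without the C2C12 line term that pairs the wells, edgeR called 0 (0 higher, 0 lower), with 167 genes at an unadjusted p under 0.05; the lines then count as spread. Leaving out 1 well gave 302 to 579 calls, 197 to 343 higher and 102 to 236 lower, with 302 without the HEK-Jag1WT well on C2C12-Notch1 cells and 319 without that on C2C12-control cells. The 9 genes with unequal responses were 3 with library size scaling, 8 without the filter and 10 without Jag1 reads; leaving out a well leaves that fit no residual degrees of freedom. All 123 named called genes other than Jag1 kept their sign in every alternative run, and 41 kept their call in all but the fit without the line term. The shallowest well had 2263529 mouse reads, and the part of its depth in the number of falls was not tested.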
